A study of Mus musculus with 6 samples.

Results

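The expression of 7 nuclear long noncoding RNA genes was followed through the cells of islets from β14-3-3ζ–KO mice and WT controls: Meg3, Rian, and Mirg of the Meg3 locus, and Malat1, Neat1, Kcnq1ot1, and Snhg11. The genes were chosen by symbol, and each of the 7 names matched 1 of the 32285 genes counted. Droplet single-cell RNA-Seq libraries were made from islets of 3 WT and 3 KO mice, 1 library per mouse, after overnight culture, dispersal with trypsin, and removal of dead cells. KO mice carried floxed Ywhaz, the gene of 14-3-3ζ, and Ins1-CreThor, in which the Ins1 promoter restricts Cre to β cells. WT mice were littermates with Cre and without the floxed deletion, so Cre was shared by both groups, and all mice were on a C57BL/6J background and aged 12 to 14 weeks. Each value below is a count of unique molecular identifiers (UMIs, 1 per captured poly(A) RNA molecule), either as a share of the UMIs of a library's cells of a type in counts-per-million (CPM) or as a log2 ratio of such sums. Over the 6 libraries, 43445 barcodes held 74083947 to 98294915 UMIs per library, and 25819 cells remained after removal of doublet calls, of barcodes under 500 genes, and of barcodes whose share of UMIs from genes of the mitochondrial genome (mt-) exceeded 10%. Pairs of libraries shared 7 to 27 barcode sequences. Cell types below are named from their markers as "-like" clusters, and Ins1 and Ins2 made up 37.8% to 43.8% of the UMIs of β cell–like cells.

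Meg3, Rian, and Mirg lie on the same strand of the Dlk1-Dio3 imprinted region, where the maternal chromosome gives noncoding RNAs and the paternal chromosome gives Dlk1, Rtl1, and Dio3. Rian and Mirg are the host transcripts of C/D box small nucleolar RNAs and of a large microRNA cluster, and Meg3 itself stays mostly in the nucleus and is known as an abundant RNA of β cells. Malat1 is a component of nuclear speckles, which hold splicing factors, and Neat1 is the scaffold of paraspeckles. Kcnq1ot1 is transcribed from the paternal chromosome antisense to Kcnq1 and silences neighbouring imprinted genes in cis. Snhg11 hosts small nucleolar RNAs in its introns and is best known from neurons.

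In GRCm38 with the GENCODE vM21 annotation, Meg3 (ENSMUSG00000021268) spans chr12:109541001-109571726 on the plus strand. Rian (ENSMUSG00000097451) follows at chr12:109603940-109661716, with its start 62.9 kb past that of Meg3. Mirg (ENSMUSG00000097391) ends the series at chr12:109729764-109749460, 208.5 kb from the start of Meg3. Malat1 (ENSMUSG00000092341, chr19:5795690-5802672) and Neat1 (ENSMUSG00000092274, chr19:5824708-5845478) are neighbours on the minus strand, 22.0 kb apart. Kcnq1ot1 (ENSMUSG00000101609, chr7:143203458-143296549, minus strand) lies wholly inside Kcnq1 on the opposite strand, and reads of the pair could be told apart only where the counting used strand. Snhg11 (ENSMUSG00000044349, chr2:158375638-158386145, plus strand) is annotated as protein coding, and its noncoding role rests on its name and the small nucleolar RNAs within it. The opposite-strand transcripts Gm26906 in Meg3 and Gm37376 in Malat1, and the same-strand transcript Gm26945 in Rian, overlap members, so a part of those counts could be assigned either way.

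The promoter of Meg3 is shown because the 3 genes of the locus varied together between cell types, which was not particular to them. Over the means of 9 cell types Meg3 correlated at 0.972 with Rian and 0.968 with Mirg (Pearson's r). Its correlation was 0.987 with Snhg11 and 0.950 with Kcnq1ot1, which lie on other chromosomes, and 0.208 with Malat1 and −0.0159 with Neat1. The RefSeq window in GRCm38.p6, from 250 bases before to 50 bases after the annotated start, is chr12:109540746-109541045 on the plus strand, printed 5′ to 3′ with 2 motif matches in capitals.
Meg3: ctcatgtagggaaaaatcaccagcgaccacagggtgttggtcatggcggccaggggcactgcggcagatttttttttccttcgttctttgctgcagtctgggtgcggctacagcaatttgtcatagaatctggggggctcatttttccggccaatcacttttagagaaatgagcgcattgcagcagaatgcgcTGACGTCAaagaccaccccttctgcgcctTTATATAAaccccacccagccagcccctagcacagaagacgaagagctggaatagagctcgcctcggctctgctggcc
The first match is the palindromic cAMP response element TGACGTCA, which starts 57 bases before the start site and occurs in 586 of 32544 such windows of all genes (1.80%). The second is the TATA-like element TATATAA, found on both strands in overlapping positions and present in 1049 windows (3.22%). Of the other members, Rian, Mirg, Malat1, Kcnq1ot1, and Snhg11 had an entry and neither motif in their windows, as had a second annotated start of Meg3. These are matches of letters, and binding was not measured.

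Among the 9 cell types compared, the 3 genes of the Meg3 locus each had their 4 highest means in the endocrine types. Meg3 was at 1057, 1290, and 1467 CPM in the β cell–like cells of WT libraries 1 to 3 and at 1187, 1134, and 1330 CPM in those of KO libraries 1 to 3. In δ cell–like cells it was at 2319, 2556, and 2468 CPM in WT and 2167, 2310, and 2362 CPM in KO, above β cell–like cells in 6 of 6 libraries. In α cell–like cells it was at 1736 to 2108 CPM and in PP cell–like cells at 1188 to 1414 CPM. For Meg3 the non-endocrine types compared lay far below, with ranges over the 6 libraries that did not meet those of the endocrine types. Endothelial-like cells held 52.5 to 209 CPM, macrophage-like cells 48.1 to 249 CPM, B cell–like cells 99.7 to 277 CPM, T cell–like cells 39.6 to 260 CPM, and stellate-like cells 101.3 to 585 CPM. Relative to β cell–like cells, with both sums TMM normalized and the library as a term, Meg3 was lower by 3.69 on the log2 scale in endothelial-like cells (−3.69, SE 0.29, edgeR quasi-likelihood adjusted p = 5.39e-17).

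**Figure D1:**
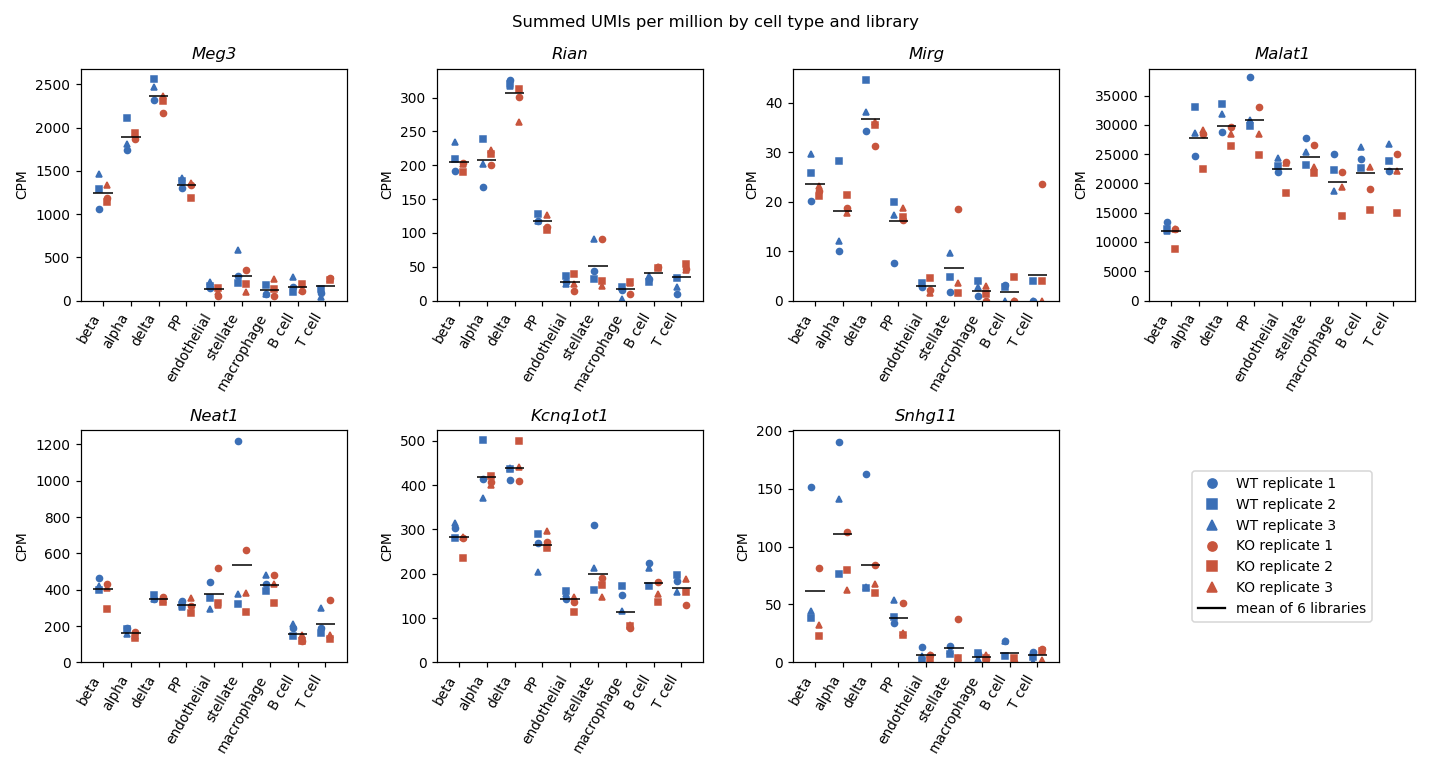
Summed UMIs of each of the 7 genes in CPM (linear axes from 0) in 9 cell types, with a point for each of the 6 libraries (WT blue, KO red; circle, square, and triangle for replicates 1, 2, and 3) and a line at their mean. Meg3 lies at 1057 CPM or more in every library of the 4 endocrine types and at 585 CPM or less in the other 5 types, while Malat1 is lowest in β cell–like cells.

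Rian and Mirg had their highest mean in δ cell–like cells as well. Rian was at 264 to 327 CPM there, against 190 to 235 CPM in β, 168 to 238 CPM in α, and 104 to 128 CPM in PP cell–like cells. Mirg was at 31.2 to 44.7 CPM in δ and 20.1 to 29.6 CPM in β cell–like cells. In macrophage-like cells Rian was at 2.70 to 28.02 CPM and Mirg at 0 to 3.88 CPM, the latter from at most 5 UMIs in a library. Mirg did not separate the types in every library. It reached 23.6 CPM in T cell–like cells of KO library 1, from 2 UMIs, and was at 7.61 to 20.04 CPM in PP cell–like cells. The order for Meg3 ran from δ over α and PP to β cell–like cells. Its neighbours differed in the same direction in 6 of 6 libraries between δ and α and between α and PP, and in 5 of 6 libraries between PP and β. For Rian, α and β cell–like cells were not ordered (α higher in 3 of 6 libraries). With 6 libraries, the 2-sided exact sign-flip test cannot give a p below 0.03125, and adjusted over the 56 neighbouring pairs of all members the lowest p was 0.159, so no single step in these orders passed 0.05.

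Hormone transcripts fill different shares of the UMIs in these types, which moves every other gene's CPM. In CPM of the UMIs outside hormone and mt- genes, Meg3 was at 3282 ± 201 (SD, n = 6 libraries) in δ, 2875 ± 185 in α, 2792 ± 207 in PP, and 2264 ± 256 in β cell–like cells. The log2 difference from β cell–like cells in the TMM fit was 0.49 (SE 0.25, adjusted p = 0.105) for δ and 0.35 (SE 0.25, adjusted p = 0.275) for α, so the higher Meg3 of these types did not pass the test.

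**Figure D2:**
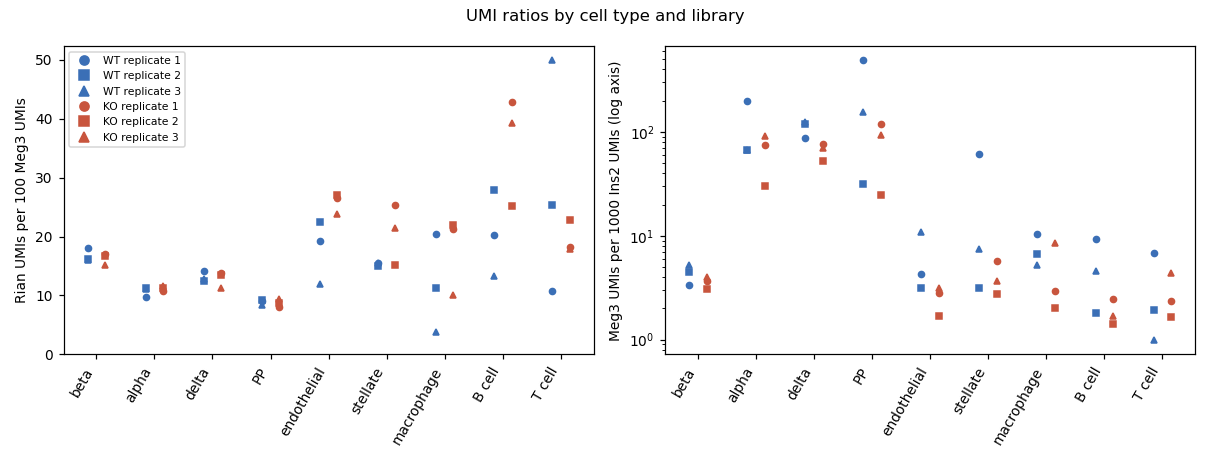
Left, Rian UMIs per 100 Meg3 UMIs in 9 cell types (linear axis from 0). Right, Meg3 UMIs per 1000 Ins2 UMIs (log axis). Each point is 1 of the 6 libraries, with colours and shapes for genotype and replicate. The Rian ratio of β cell–like cells lies above and that of PP cell–like cells below the overlapping α and δ values, and endothelial-like, B cell–like, and T cell–like cells scatter around the Meg3 to Ins2 ratio of β cell–like cells.

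The genes of the locus did not keep 1 proportion across endocrine types. Per 100 UMIs of Meg3 there were 16.6 ± 1.01 UMIs of Rian (SD, n = 6) in β, 13.02 ± 1.08 in δ, 11.0 ± 0.674 in α, and 8.81 ± 0.479 in PP cell–like cells. The lowest β value was 15.2 and the highest of the other 3 types 14.1, so β cell–like cells stood above them in this ratio without overlap. Mirg was at 1.90 ± 0.101 per 100 UMIs of Meg3 in β, 1.55 ± 0.107 in δ, 1.21 ± 0.323 in PP, and 0.936 ± 0.282 in α cell–like cells, so PP and α stood in the reverse of their order for Rian. These ratios are of UMIs, without correction for length, and are read only between types. In the TMM fit Rian was lower in PP than in β cell–like cells at −0.66 (SE 0.19, adjusted p = 0.00335, short of the 2-fold size used to call a gene), while Meg3 was at 0.26 (SE 0.26, adjusted p = 0.450).

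Insulin UMIs were present in the non-endocrine types too. Ins1 and Ins2 made up 2.16% to 9.89% of the UMIs of endothelial-like cells and 1.48% to 16.4% of those of T cell–like cells, neither of which expresses insulin. Meg3 was present at 4.32 ± 3.27 UMIs per 1000 Ins2 UMIs (SD, n = 6) in endothelial-like, 3.54 ± 3.07 in B cell–like, and 3.01 ± 2.17 in T cell–like cells, against 3.97 ± 0.789 in β cell–like cells. In macrophage-like cells it was at 5.99 ± 3.28 and in stellate-like cells at 14.0 ± 23.2, with a range of 2.78 to 61.1 in the latter. In δ and α cell–like cells the ratio was 88.2 ± 28.4 and 88.2 ± 57.0. After every cell was thinned to 2000 UMIs, Meg3 had a UMI in 81.2% to 89.6% of β and 89.5% to 98.4% of δ cell–like cells, and in 10.5% to 22.6% of endothelial-like and 15.5% to 34.6% of B cell–like cells. Before thinning, the medians over libraries were 99.7% for β and 39.96% for B cell–like cells, whose median depths were 22704 to 39097 and 3867 to 5054 UMIs. The shares in lymphocytes varied between libraries and were not subtracted from those of other types. The part of free RNA in these counts was not tested.

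By CPM, Malat1 was lowest in β cell–like cells. Its β cell–like levels were 13476, 12262, and 11876 CPM in WT and 12204, 8747, and 12268 CPM in KO libraries. The other 8 types ran from 14392 CPM in macrophage-like to 38150 CPM in PP cell–like cells, and β cell–like cells were lowest in 6 of 6 libraries. The log2 differences from β cell–like cells were 0.46 to 1.54, with an adjusted p under 0.05 in 8 of 8 types (19.5% to 39% of all genes were higher by that rule), and passed the 2-fold size in PP cell–like cells (1.54, SE 0.13, adjusted p = 9.13e-15). In CPM of the UMIs outside hormone and mt- genes, Malat1 was at 64593 ± 8406 (SD, n = 6) in PP, 42061 ± 5253 in α, 41319 ± 3311 in δ, 24414 ± 1791 in endothelial-like, and 21413 ± 2232 in β cell–like cells, and β cell–like cells were no longer lowest in every library. On that scale macrophage-like cells were below β cell–like cells in 3 of 6 libraries, and B cell–like and T cell–like cells each in 1 of 6.

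Neat1 was lowest in α cell–like cells among the endocrine types. It was at 133 to 190 CPM there, against 295 to 463 CPM in β, 330 to 370 CPM in δ, and 271 to 355 CPM in PP cell–like cells, with no overlap between α and the other 3 types. The log2 difference of α from β cell–like cells was −1.58 (SE 0.15, adjusted p = 1.75e-13). B cell–like and T cell–like cells were lower than β cell–like cells by a like amount, at −1.37 (SE 0.16) and −1.37 (SE 0.17). Kcnq1ot1 was at 371 to 502 CPM in α and 408 to 500.1 CPM in δ cell–like cells, above the 237 to 316 CPM of β cell–like cells in 6 of 6 libraries. In the TMM fit the differences were 0.29 (SE 0.12, adjusted p = 0.0348) for α and 0.20 (SE 0.11, adjusted p = 0.154) for δ, so that of δ did not pass. It was lower in endothelial-like (−1.47, SE 0.12) and macrophage-like cells (−1.49, SE 0.13) than in β cell–like cells. Snhg11 was at 62.1 to 191 CPM in α and at most 18.5 CPM in B cell–like, T cell–like, endothelial-like, and macrophage-like cells. Stellate-like cells held 3.62 to 37.0 CPM and overlapped β cell–like cells. Its spread within a type was wide, from 23.1 to 152 CPM in β cell–like cells.

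Across the 8 types compared with β cell–like cells, the 7 members gave 26 calls at an adjusted p under 0.05 and a change over 2-fold, of which 25 were lower than in β cell–like cells. The share of all 12415 genes called was 14.9% for α, 14.5% for δ, 16.2% for PP, 46.4% for endothelial-like, 42.3% for stellate-like, 47.5% for macrophage-like, 43.1% for B cell–like, and 41.7% for T cell–like cells. For the lower direction it was 24.3%, 19.8%, 25.6%, 22.9%, and 21.8% in the last 5 of these, and for the higher direction 7.3%, 9.43%, 8.01%, 22.1%, 22.6%, 21.9%, 20.2%, and 19.9% in all 8, in the same order. There, 4 or 5 of the 7 members were called lower, among them Meg3, Rian, Mirg, and Snhg11 in each of the 5 types. In δ cell–like cells no member was called by edgeR or DESeq2 (2 of 7 had an unadjusted p under 0.05), and in α cell–like cells the single call was Neat1.

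Genes whose mean level over the 9 types ran most like that of each member were ranked by Pearson's r over these 9 points, which share libraries and are averages, as a description. For Meg3 they were Cacnb2, a calcium channel subunit (r = 0.998), Tmem107 (0.998), and Rims2, a protein of secretory vesicle docking (0.994). For Rian they were Cacna1a, Gnao1, and Bex2 (0.989 to 0.994), for Mirg Marveld3, Eps8l2, and Abcd3 (0.990 to 0.993), and for Kcnq1ot1 Hmgn3, Vat1l, and Ncam1 (0.981 to 0.984). Snhg11 lay nearest to Tmem107, Celsr3, and Rims2 (0.992 to 0.993). Malat1 and Neat1 had no gene as close, with 0.869 for Lyrm2 and 0.889 for Plpp2.

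Other genes of the 2 imprinted regions were compared between the same types. In δ cell–like cells Dlk1, the paternally expressed neighbour of Meg3, was higher than in β cell–like cells at 3.77 (SE 0.26, adjusted p = 1.61e-18), and Wars, a tRNA synthetase gene at the edge of the region, was lower at −1.92 (SE 0.13). Those were the 2 calls among the 5 genes tested of the 10 listed for the Dlk1-Dio3 region. In the Kcnq1 domain, 2 of 6 genes tested were called, Cd81 at 2.42 (SE 0.12) and Tssc4 at −1.12 (SE 0.10). In α cell–like cells the calls were Wars at −2.07 (SE 0.14), Cdkn1c, an imprinted cell cycle inhibitor, at 2.16 (SE 0.32), Cd81 at 2.50 (SE 0.12), and Tssc4 at −1.45 (SE 0.11). None of 15 paraspeckle and 15 nuclear speckle protein genes was called in either type, with medians of 0.09 and 0.27 in δ against 0.00 over all genes.

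Deletion of Ywhaz was checked first. In β cell–like cells, Ywhaz was at 165 ± 7.82 CPM in WT and 18.6 ± 0.186 CPM in KO libraries after TMM normalization, with all KO cells kept (SD, n = 3 each), a log2 difference of −3.15 (SE 0.07, adjusted p = 6.46e-07). The comparison of genotypes used all 570, 816, and 825 WT cells and the 621, 652, and 580 KO cells without a Ywhaz UMI, since 31.2% to 43.5% of KO β cell–like cells still held 1 or more. This choice took shallower cells on the KO side only. The KO cells used had medians of 27602, 22162.5, and 28988.5 UMIs, against 33440, 24439, and 33847 in the KO cells left out.

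No member was called between WT and KO β cell–like cells (0 of 7, with 0 at an unadjusted p under 0.05 in edgeR and 0 calls in DESeq2). Of all 9594 genes tested, 0.0104% were called, a single gene, Ywhaz, whose absence had chosen the KO cells, and 453 had an unadjusted p under 0.05. Meg3 was at 1010, 1284, and 1400 CPM in WT and 1173, 1285, and 1310 CPM in KO libraries on the TMM scale. The groups overlapped, and the difference was 0.03 (SE 0.13, adjusted p = 0.981). Rian was at 205 ± 20.6 and 205 ± 9.26 CPM, with a difference of −0.00 (SE 0.09), and Mirg at 24.4 ± 4.67 and 23.0 ± 1.87 CPM, with −0.09 (SE 0.14). Malat1 was at 12871, 12206, and 11340 CPM in WT and 11937, 9896, and 12112 CPM in KO, a difference of −0.10 (SE 0.13, adjusted p = 0.940), and KO library 2 was the lowest of the 6. Neat1 was at 413 ± 25.3 and 387 ± 58.8 CPM (−0.09, SE 0.12). Kcnq1ot1 was at 290, 278, and 301 CPM in WT and 275, 265, and 278 CPM in KO, the one member whose groups did not overlap (−0.09, SE 0.07, adjusted p = 0.917). Over all genes, 5.14% had every KO library below every WT library.

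**Figure D3:**
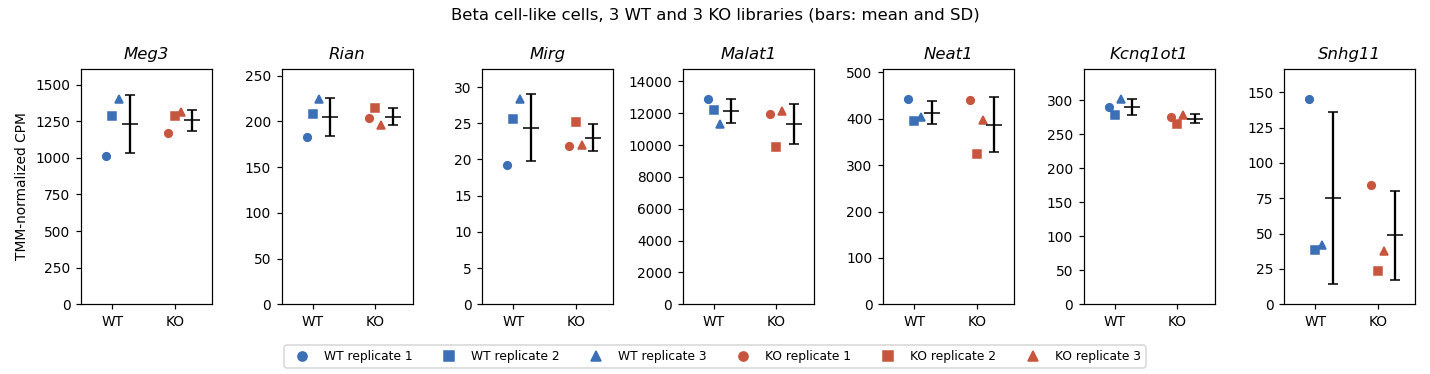
TMM-normalized CPM of the 7 genes in β cell–like cells (linear axes from 0) of 3 WT and 3 KO libraries, with the mean and SD beside the points. The groups overlap in 6 of 7 genes, and the 2 libraries numbered 1 stand above the other 4 for Snhg11.

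Snhg11 depended on whether the libraries were paired. It was at 145, 38.1, and 42.1 CPM in WT libraries 1 to 3 and at 84.2, 23.8, and 37.9 CPM in KO libraries 1 to 3. Both libraries numbered 1 were high, and KO was below WT in each of the 3 numbers. The unpaired difference was −0.62 (SE 0.58, adjusted p = 0.923). With the replicate number as a block it was −0.54 (SE 0.10, adjusted p = 0.0414), a call, and the adjusted p ran from 1.83e-10 to 1.00 over its 18 alternatives. The block called more genes in all than the unpaired fit, as counted in a later section. Its pairing was drawn from these same counts, so this call is no independent test. Without WT library 1 the difference turned to 0.29, and without KO library 1 it was −1.27 (adjusted p = 1.00 and 0.634, without the block). In β cell–like cells, 1850 of 9601 genes (19.3%) had both libraries numbered 1 above the other 4, and Snhg11 had rank 5 of all genes by the size of that gap, at 1.85 times.

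None of the gene lists around the members was called in β cell–like cells. The edgeR test reached 5 genes of the Dlk1-Dio3 region, 3 of the Kcnq1 domain, 15 of 15 paraspeckle protein genes, 15 of 15 nuclear speckle protein genes, 16 of 18 other small nucleolar RNA host genes, and 10 other long noncoding RNAs, with medians of −0.05 to 0.10 against −0.00 over all genes. Among paraspeckle protein genes the lowest p values were those of Rbm14 (−0.26, SE 0.08, unadjusted p = 0.0138, adjusted p = 0.917) and Ewsr1 (−0.21, SE 0.08, unadjusted p = 0.025).

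In the 8 other types, which are not targets of the Ins1 promoter, no member was called in 47 tests (6 with an unadjusted p under 0.05 in edgeR, 0 calls in DESeq2, with 0.0128%, 0.0142%, and 0.0155% of all genes called in PP cell–like, B cell–like, and T cell–like cells and 0% in the other 5). The difference with the lowest p was that of Meg3 in T cell–like cells, which was at 83.1, 132, and 39.6 CPM in WT and 260, 235, and 253 CPM in KO libraries. The groups did not overlap, and the difference was 1.38 (SE 0.28, adjusted p = 0.122, with 0.00133 to 0.385 over 11 alternatives). These levels rest on 65, 343, and 2 UMIs in WT and 22, 1846, and 112 UMIs in KO. Insulin made up 1.48%, 9.24%, and 5.46% of UMIs in those WT and 13.3%, 16.4%, and 6.67% in those KO libraries, and its part in the difference was not tested. Without WT library 2, Meg3 at 1.85 (adjusted p = 0.0129) and Rian at 2.56 (adjusted p = 0.0181) passed. Rian was otherwise at 1.22 (SE 0.37, adjusted p = 0.438). A test of whether the genotype difference in T cell–like cells differed from that in β cell–like cells, added after the data were seen, gave 1.31 for Meg3 (limma-voom adjusted p = 0.612).

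Kcnq1ot1 in macrophage-like cells was at 152, 173, and 116 CPM in WT and 76.8, 82.0, and 83.9 CPM in KO libraries, without overlap. The difference was −0.78 (SE 0.16, adjusted p = 0.468), and −0.78 (SE 0.15, adjusted p = 0.014) with the replicate number as a block, against 0.000558 to 0.994 over 11 alternatives. Over the 8 other types together the block called more genes than the unpaired fits, as counted in a later section. Its pairing was drawn from the β cell–like cells of the same libraries. In δ cell–like cells, differences of the 7 members ran from −0.44 for Snhg11 to 0.10 for Kcnq1ot1, and in α cell–like cells from −0.66 for Snhg11 to 0.17 for Mirg. All adjusted p values there were 1.00.

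The members were then read across 21002 insulin-rich barcodes, defined by Ins1 and Ins2 at 20% or more of UMIs and by Gcg, Sst, Ppy, and Pyy together under 5%, without the filters on genes and mt- share. Of these, 7552 had under 1% of UMIs on mt- genes, 9632 had 1% to 10%, and 3818 had over 10%. Barcodes under 1% were unequally spread over libraries, with 38, 3747, and 931 in WT and 833, 344, and 1659 in KO libraries.

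In barcodes of 2000 to 5000 UMIs, Kcnq1ot1 and Snhg11 were called lower below 1% mt- than at 1% to 10%, Malat1 and Meg3 were lower by adjusted p alone, and Rian and Neat1 did not pass. The 5 libraries with at least 20 barcodes of each kind left out WT library 1. Malat1 was at 5828 and 9651 CPM in WT libraries 2 and 3 and at 11592, 9938, and 8901 CPM in KO libraries 1 to 3 below 1%. At 1% to 10% it was at 15567, 12765, 18557, 17066, and 19438 CPM, higher in 5 of 5 libraries. The difference was −0.90 (SE 0.15, adjusted p = 9.56e-05). Kcnq1ot1, at 86.6, 112, 175, 94.5, and 105 CPM against 137, 199, 243, 156, and 425 CPM, was called at −1.10 (SE 0.16, adjusted p = 5.12e-06). Snhg11 was called at −1.43 (SE 0.32, adjusted p = 0.00643), from 3.10 to 58.4 CPM against 12.6 to 84.6 CPM. Below 1% these libraries held 2554, 193, 21, 174, and 748 barcodes in the same order, and at 1% to 10% 138, 85, 63, 658, and 183. With so few barcodes of at most 5000 UMIs, the levels of the sparser members in KO library 1 rest on few UMIs. Meg3 was at 341, 590, 682, 446, and 506 CPM against 476, 872, 1478, 552, and 1003 CPM, a difference of −0.67 (SE 0.13, adjusted p = 0.00116) short of 2-fold. Rian and Neat1 were at −0.18 (SE 0.15, adjusted p = 0.767) and −0.15 (SE 0.14, adjusted p = 0.810), and Mirg was too sparse to test.

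By the rule with size, 2 of 6 members tested were called, against 0.705% of 4962 genes (0.524% lower and 0.181% higher). At an adjusted p under 0.05 alone, 4 of 6 were lower, against 1.45% of genes. Of the 1134 barcodes at 1% to 10% in this UMI range, 590 were in clusters of another cell type, 488 of them in the B cell–like and T cell–like clusters of KO library 2. With those clusters left out on both sides, a step added after the data were seen, Malat1 was at −1.05 (adjusted p = 8.13e-14), Kcnq1ot1 at −1.32 (adjusted p = 1.71e-13), and Meg3 at −0.81 (adjusted p = 4.24e-08), and Snhg11 was too sparse to test. Over all 14 alternatives the adjusted p ran from 8.13e-14 to 0.153 for Malat1, from 1.71e-13 to 0.140 for Kcnq1ot1, and from 4.24e-08 to 0.4998 for Meg3. The alternative without WT library 1 repeated the main fit, which did not hold that library. The call of Kcnq1ot1 was lost without KO library 3 (−0.72, adjusted p = 0.0138), and Snhg11 was too sparse to test without WT library 3, KO library 1, or KO library 3. With insulin-rich set at 10% none of the 6 passed an adjusted p of 0.05 (Malat1 at −1.05, adjusted p = 0.153).

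At 1000 to 2000 UMIs no member passed an adjusted p of 0.05. Malat1 was at 5527, 6183, 7857, and 6518 CPM below 1% and at 21020, 5830, 8901, and 11420 CPM at 1% to 10% in WT libraries 2 and 3 and KO libraries 1 and 3, lower below 1% in 3 of 4 libraries (−0.71, SE 0.16, adjusted p = 0.209). No member of 6 tested was called by edgeR or DESeq2, with 3 at an unadjusted p under 0.05, against 0.0145% of 6905 genes called. Over 14 alternatives, none of which called a member with the 2-fold size, the adjusted p ran from 4.06e-24 to 1.00 for Malat1 (−0.99 to −0.32), from 0.00796 to 1.00 for Meg3 (−0.52 to −0.20), and from 0.0297 to 1.00 for Neat1. The alternatives without WT library 1 and without KO library 2 repeated the main fit, which held neither library. Without WT library 2 Malat1 was at −0.32 (adjusted p = 0.00580) and Meg3 at −0.39 (adjusted p = 0.0194), and without WT library 3 they were at −0.99 (adjusted p = 2.92e-06) and −0.47 (adjusted p = 0.0243). Malat1 was found in nearly every such barcode: of 1166, 731, 728, and 904 barcodes below 1%, 4, 4, 2, and 0 had no Malat1 UMI.

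**Figure D4:**
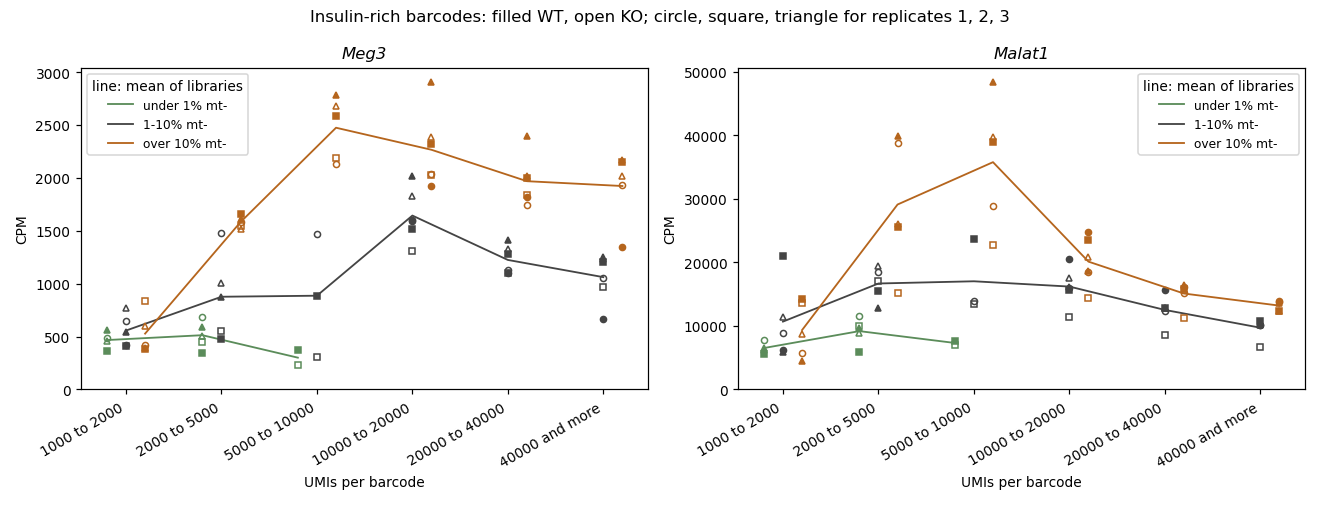
Meg3 and Malat1 in CPM (linear axes from 0) in insulin-rich barcodes by UMIs per barcode and by mt- share (under 1% green, 1% to 10% grey, over 10% brown), with a point per library holding at least 20 barcodes (filled WT, open KO) and lines through the means. From 2000 UMIs upward the mean is highest over 10%, and where barcodes under 1% are shown theirs is lowest, and Malat1 peaks at 35777 CPM over 10% at 5000 to 10000 UMIs.

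The levels were also read by depth. Among barcodes at 1% to 10% mt-, Meg3 averaged 876 CPM at 2000 to 5000 UMIs, 1644 ± 247 CPM at 10000 to 20000, 1224 ± 135 CPM at 20000 to 40000, and 1062 ± 222 CPM at 40000 and more (SD, n = 6 for the last 3 ranges). Malat1 fell over those last 3 ranges too, from 16195 ± 2945 over 12520 ± 2255 to 9721 ± 1491 CPM, while insulin rose from 36.1% over 40.6% to 44.9% of UMIs. Between 2000 to 5000 and 20000 to 40000 UMIs in the 5 libraries with both, no member was called by edgeR or DESeq2 (6 of 7 had an unadjusted p under 0.05, 4.39% of 12004 genes called). At an adjusted p under 0.05 alone 4 of 7 were lower in the shallow barcodes, against 2.73% of genes: Neat1 at −0.88 (SE 0.14, adjusted p = 8.31e-06), Meg3 at −0.67 (SE 0.17), Rian at −0.57 (SE 0.14), and Mirg at −0.90 (SE 0.29, adjusted p = 0.0403). Malat1 was at 0.44 (SE 0.19, adjusted p = 0.175). With clusters of another type left out, Neat1 stayed at −0.70 (adjusted p = 2.49e-06), Meg3 was at −0.43 (adjusted p = 0.0161), and Rian and Mirg no longer passed (adjusted p = 0.282 and 0.721). Over 12 alternatives the adjusted p ran from 4.51e-09 to 0.254 for Neat1 and from 1.85e-05 to 0.279 for Meg3. The alternative without WT library 1 repeated the main fit, which did not hold that library.

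The mt- share was then followed upward at a fixed 20000 to 40000 UMIs. Meg3 averaged 499 CPM at 1% to 2%, 906 CPM at 2% to 4%, and 1939 CPM at 10% to 20%. From 2% to 4% over 4% to 6% and 6% to 10% to 10% to 20% it rose at each step in 6 of 6 libraries, by 1.86 to 2.99 times in all. In WT libraries it went from 603, 959, and 1016 CPM to 1804, 1925, and 2397 CPM, and in KO libraries from 889, 890, and 1079 CPM to 1722, 1783, and 2006 CPM. Insulin fell from 46.5% to 30.8% of UMIs over the same steps, and in CPM of the UMIs outside hormone and mt- genes Meg3 still rose at each step in 6 of 6 libraries, by 1.73 to 2.38 times. Malat1 by that measure rose at each step in 2 of 6 libraries and changed by 0.905 to 1.41 times. Neat1 so rose in 6 of 6, Rian and Kcnq1ot1 in 5, Mirg in 4, and Snhg11 in 2. Median genes per barcode ran from 3461 to 5210 over libraries at 2% to 4% and from 4853 to 5341 at 10% to 20%. The gene-poor insulin-rich cluster described below had a median mt- share of 2.23% and a median of 31305 UMIs. Barcodes over 10% mt- had been left out before doublet calls and clustering, so all 771 of them in this UMI range belonged to no cluster. Of the 3297 barcodes at 1% to 10%, 113 were not clustered. The spread of clusters could therefore not be compared with the bin of 10% to 20%. The part of clusters and of doublets in the rise was not tested.

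**Figure D5:**
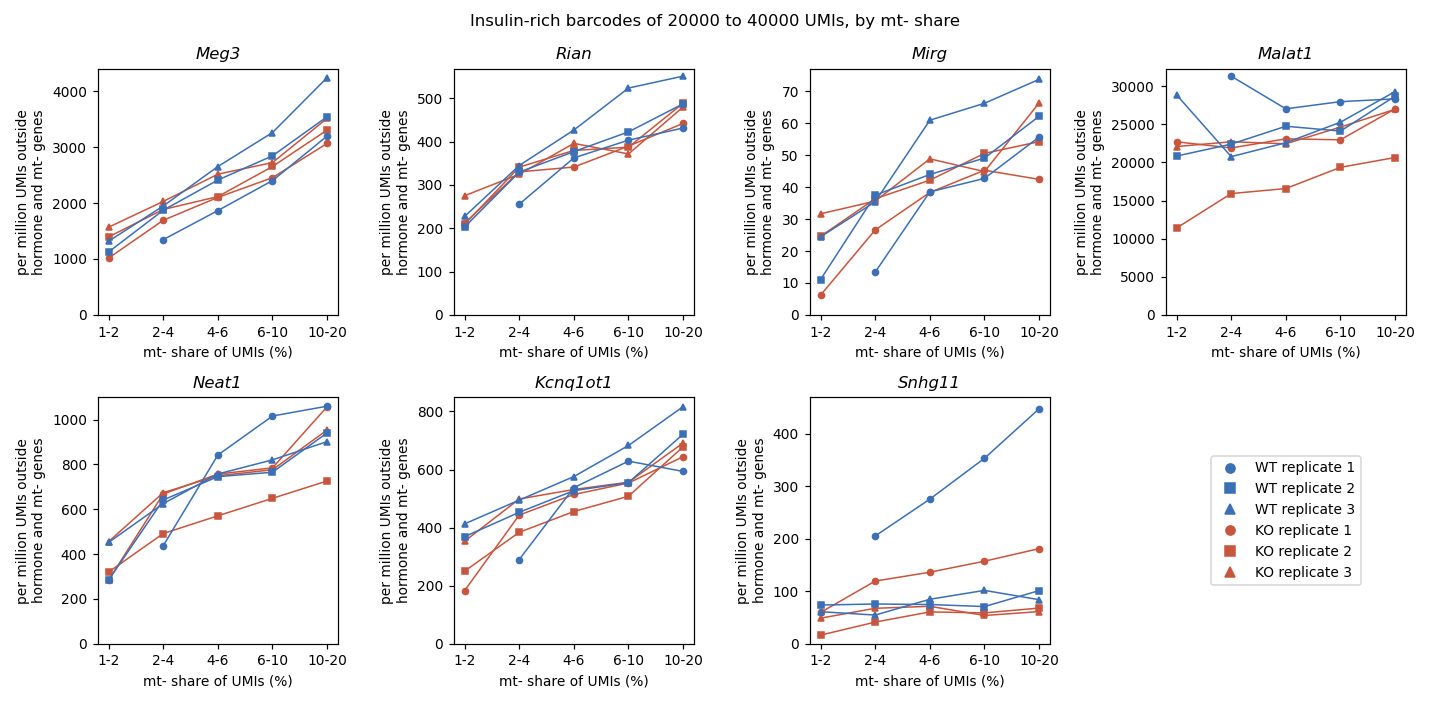
The 7 genes in CPM of the UMIs outside hormone and mt- genes (linear axes from 0) in insulin-rich barcodes of 20000 to 40000 UMIs, in 5 bins of the mt- share, with a line per library holding at least 20 barcodes in a bin. Meg3 and Neat1 climb from 2% to 4% onward in 6 of 6 libraries and in WT and KO alike. Rian and Kcnq1ot1 do so in 5 of 6, Mirg in 4 of 6, and Malat1 and Snhg11 in 2 of 6. Malat1 changed by 0.905 to 1.41 times between the bins of 2% to 4% and 10% to 20%.

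The test of this contrast, 10% to 20% against 2% to 4%, was added after the data were seen. Meg3 was higher at 0.85 (SE 0.08, adjusted p = 2.04e-08), above 99.4% of the 10830 genes tested. Mirg followed at 0.78 (SE 0.11), Kcnq1ot1 at 0.59 (SE 0.07), Neat1 at 0.56 (SE 0.08), Rian at 0.47 (SE 0.06), and Snhg11 at 0.47 (SE 0.09), with adjusted p values of 2.69e-07 to 0.000273 for these 5. Malat1 was at 0.16 (SE 0.11, adjusted p = 0.294). At an adjusted p under 0.05 alone 6 of 7 members were higher, against 14.9% of all genes, and none passed the 2-fold size in edgeR or DESeq2, against 0.526%. For Meg3 the 12 alternatives, each library left out in turn among them, gave 0.81 to 0.88. Another of them, the removal of clusters of another type, could act only on the side of 2% to 4%, since no barcode over 10% was clustered.

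Another noncoding RNA of the locus, B830012L14Rik (chr12:109695586-109702587, between Rian and Mirg), was higher in the same contrast at 0.90 (SE 0.08, adjusted p = 1.14e-08), while the other 4 genes tested of the Dlk1-Dio3 list did not pass (Dync1h1 at 0.14, adjusted p = 0.0797, the lowest of these). Of the 17 other small nucleolar RNA host genes tested none was called with the 2-fold size, and their median was −0.43 against 0.00 over all genes. Those with the lowest p were Snhg1 at −0.98 (SE 0.10, adjusted p = 8.11e-08) and Zfas1 at −0.71 (SE 0.10, adjusted p = 4.30e-06), and 16.6% of all genes were lower at an adjusted p under 0.05 alone. Of the nuclear speckle protein genes Luc7l3 was at 0.41 (SE 0.06, adjusted p = 1.44e-05), with a list median of 0.11 over 15 tested.

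Between genotypes, no member was called in insulin-rich barcodes at 1% to 10% mt- within 3 UMI ranges. In each range 0 of 7 passed in edgeR and in DESeq2, and 0 had an unadjusted p under 0.05, against 0.01%, 0.00767%, and 0.00744% of genes called. At 20000 to 40000 UMIs, Meg3 was at 1097, 1278, and 1416 CPM in WT and 1126, 1101, and 1327 CPM in KO (−0.01, SE 0.12), and Malat1 at 15605, 12846, and 12809 against 12402, 8573, and 12885 CPM (−0.22, SE 0.14, adjusted p = 0.851). Snhg11 at 10000 to 20000 UMIs was −0.49 (SE 0.57, adjusted p = 0.999), and −0.81 (SE 0.15, adjusted p = 0.00638) with the replicate block, the lowest adjusted p of its 14 alternatives, which ran up to 1.00. Over the 3 ranges together the block called more genes than the unpaired fits, as counted in a later section.

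Clusters that took no name were read apart. A gene-poor cluster of 712 insulin-rich cells, in which insulin made up 62.8% to 71.2% of UMIs, held 236 to 540 CPM of Meg3 and 57.6 to 143 CPM of Neat1, and these ranges lay below those of β cell–like cells. In 7 clusters of 7700 shallow cells, with medians under 3500 UMIs and under 1% mt-, Meg3 ranged from 372 to 1051 CPM and Malat1 from 5883 to 12036 CPM. A cluster of 338 shallow cells with α markers held 24421 to 61878 CPM of Malat1, against 22515 to 33133 CPM in α cell–like cells. These clusters were built from other genes, since members, Ywhaz, insulin, mt-, and ribosomal genes were kept out of the clustering.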

How the data were processed

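Single-cell RNA-Seq was performed by the authors with the 10x Genomics 3′ kit (v3.1) on islets of 3 WT and 3 KO mice. The deposited values were raw UMI counts per gene and barcode, written by Cell Ranger 6.0.2 per the file headers, and mm10 and Seurat were named in the submitters' processing notes. Whether introns were counted, and the strand setting, were not given in the sources used here. The p-values of the unpaired genotype tests measure the spread between mice. Between types and barcode classes the library was a term, and the p-values there measure how the difference within a library varied over libraries. In both, the number of mice limits the precision.

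Barcodes with under 500 genes or over 10% mt- UMIs were left out, as were doublet calls (a score threshold in WT library 1, otherwise the top scores at 0.8% per 1000 barcodes). In all, 12 to 535 barcodes per library were called. Cells were clustered with scanpy 1.11.5 (2000 variable genes, 30 components, 15 neighbours, Leiden resolution 1.5) into 32 clusters. Ywhaz, the members, Ins1, Ins2, mt-, and ribosomal genes did not enter. A cluster was named from at least 3 markers found in 10% of its cells at 1.5-fold, with a median of at least 3500 UMIs, and these numbers and the resolution were set after clusters had been seen. Rebuilt names can differ from those of the study. Types with under 10 cells in a library (dendritic-like and ductal-like) were not compared.

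Counts were summed per library and type and tested with edgeR 4.0.16 (quasi-likelihood, TMM, Benjamini-Hochberg adjustment over all genes tested) in R 4.3.3, with DESeq2 1.42.0 as an alternative. In β cell–like cells, genes with a UMI in over 15% of cells of either genotype were tested and called at an adjusted p under 0.05 and a log2 difference over 0.1. A log2 difference over 1 was required between types and between barcode classes, and none was for genotype in other types. Genes with mt- symbols did not enter tests of the mt- share. Scripts were tested on simulated data. Same-genotype libraries differed beyond sampling noise (chi-square per degree of freedom 8.82 to 60.9).

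Deviations from group means in β cell–like cells correlated at 0.571, 0.519, and 0.206 between WT and KO libraries of the same number (9594 genes). Between libraries of different numbers they correlated at −0.532 to 0.0605. Deviations cancel within a group, so these values follow in part from those of the same number and add no separate support. From the correlations at the same number, the numbers were taken as pairs in the replicate block, an alternative, while the main genotype tests used no pairing. That pairing was drawn from the same counts that the block tested. The labels say nothing of the origin of the numbers.

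Named genes were the 7 members, Ywhaz, the 3 genes nearest to each member over cell types, and, of each gene list, the called genes or the 2 of lowest p. The members and lists were chosen with earlier results of these data known. Alternatives were another scaling, no filter, the replicate block, each library left out, thinned counts, and other limits of depth, mt- share, and insulin. The block joined with other cells or filters, the removal of clusters of another type, the 10% to 20% mt- comparison, and the limma 3.58.1 interaction were added after the data were seen. Promoter windows were taken from RefSeq (GRCm38.p6), and 6 of 7 members matched.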

Additional observations from a re-analysis of the deposited data

Results flagged for a closer look

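Of 63 groups of 6 libraries (7 genes in 9 types), 8 held a library whose gap to the nearest other exceeded 0.625 of the range, where chance gives about 1 in 20 groups. In β cell–like cells, Malat1 was at 8747 CPM in KO library 2 and at 11876 to 13476 CPM in the others. In δ cell–like cells, Kcnq1ot1 was at 500.1 CPM in KO library 2 (others 408 to 441 CPM), and Snhg11 was at 162 CPM in WT library 1 (others 60.1 to 84.2 CPM). In endothelial-like cells, Snhg11 was at 13.4 CPM in WT library 1, from 24 UMIs (others 1.995 to 6.25 CPM). In stellate-like cells, Neat1 was at 1221 CPM in WT library 1 (others 280.0 to 619 CPM), and Snhg11 was at 37.0 CPM in KO library 1, from 18 UMIs (others 3.62 to 14.0 CPM). Mirg was at 7.61 CPM in the PP cell–like cells of WT library 1, from 4 UMIs (others 16.3 to 20.04 CPM). In T cell–like cells of KO library 1 it was at 23.6 CPM, from 2 UMIs (others 0 to 3.95 CPM).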

How the results depend on the processing

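In β cell–like cells 1 gene was called by genotype, against 5 with DESeq2, 5 without the filter, 62 with the replicate block, 14 with the block and all KO cells, and 517 with the block and no filter. Snhg11 was the 1 member called in those 3 block settings, at −0.54, −0.62, and −0.55. Over the 8 other types, 3 genes became 11 with DESeq2, 408 without the filter, 59 with the block, and 2 to 92 with a library left out, the highest without WT library 2. Members called there were 5 without the filter (Snhg11 in α, Meg3 in endothelial-like, Kcnq1ot1 in macrophage-like, Meg3 and Rian in T cell–like cells), 1 with the block, and 0 to 2 with a library left out. In the 3 UMI ranges 3 genes became 14, 43, and 75 with DESeq2, no filter, and the block, and 6 with insulin-rich set at 40%. The block called 1 member, and it changed no other member call between genotypes than the 3 given above. Between types, 33111 calls fell to 14793 with cells thinned to 2000 UMIs, while member calls were 22 to 28 over 12 alternatives.

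Below 1% mt- at 1000 to 2000 UMIs, 1 gene became 0 with DESeq2, 50 without the filter, 12 with insulin-rich at 10%, 6 with the limit at 0.5%, 6 at 2%, and 1 to 17 with a library left out, with 0 members in 14 alternatives. At 2000 to 5000 UMIs, 35 genes became 18, 313, 229, and 19 with DESeq2, no filter, insulin-rich at 10%, and the limit at 2%, 18 without clusters of another type, and 17 (without KO library 2) to 62 (without WT library 3) with a library left out. The 2 members called became 1 with DESeq2, 0 with insulin-rich at 10%, 0 at 0.5%, 4 at 2%, and 0 to 2 with a library left out. For shallow barcodes, 527 genes became 1354 without the filter, 1494 with insulin-rich at 10%, 208 without clusters of another type, and 211 (without KO library 2) to 683 with a library left out. Malat1 was the 1 member called with insulin-rich at 10%, and 0 to 1 with a library left out (Mirg without KO library 1 or 3, at −1.09 and −1.04). For 10% to 20% mt-, 57 genes became 153 without the filter. Causes of these changes were not tested.

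Small differences of β cell–like cells turned sign. Meg3 was at −0.062 with cells of 10000 to 40000 UMIs, −0.029 with cells thinned to 5000 UMIs, and −0.10 to 0.13 with a library left out. Rian was at 0.0024 with the block, 0.00014 with the block and no filter, 0.093 with 1% to 5% mt-, 0.0010 without doublet calls, and −0.076 to 0.068 with a library left out. Mirg was at 0.020 with 1% to 5% mt- and −0.24 to 0.034 with a library left out, Neat1 at −0.20 to 0.018, and Snhg11 at −1.27 to 0.29. Of all member values, 482 kept direction and side of the threshold and 16 turned sign. The 482 include refits without a library that the main fit did not hold, which could not differ from it. A further 13 gained a call that the main fit did not make, and 6 lost a call. Insulin-rich at 40% could not be fitted for the shallow and low mt- comparisons and was not run there.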

Other observations

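Both libraries numbered 1 were above the other 4 by more than 1.5 times for 13 of 9601 genes in β cell–like cells (0.135%). Slc39a10, a zinc transporter gene, led at 1.98 times, ahead of Cpne4 (1.91), Tmem179 (1.88), Depp1 (1.88), and Snhg11 (1.85), and then Spp1, the gene of osteopontin (1.80). These genes were chosen after their values were seen.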
